A study of Rattus norvegicus with 28 samples.

Results

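Psilocybin given alone at 1 mg/kg was compared with vehicle in the prefrontal cortex of rats killed 24 h after injection. The animals were adult males of the Sprague-Dawley stock, which is outbred. The 8 libraries concerned, 4 after psilocybin and 4 after vehicle, were chosen by their labels from the 28 of the series. Per the labels, the rats were 8 weeks old on arrival, and every animal was injected intraperitoneally first with ketanserin or with its 5% Tween-80 carrier and then with psilocybin or saline. Vehicle animals therefore had carrier and saline, and psilocybin animals had carrier and psilocybin at 1 mg/kg. Another 3 groups serve here only as points of reference, namely psilocybin at 3 mg/kg, ketanserin at 1 mg/kg, and both drugs at 1 mg/kg each, with 4 replicates a group. The remaining 8 libraries, ketanserin at 3 mg/kg alone or with psilocybin at 3 mg/kg, entered the fit and the counts over other libraries. The labels call the libraries biological replicates and do not say whether tissue of several animals was pooled, and the replicate numbers used below only name libraries.

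Psilocybin is a prodrug that the body converts to psilocin, an agonist at several serotonin receptors. In the cortex the serotonin 2A receptor, which signals through Gq and phospholipases, sits mostly on pyramidal neurons of the deeper layers, and its activation is what ketanserin blocks. Activation of cortical neurons is followed within an hour or so by a short burst of immediate early genes, which has largely subsided by the next day, so tissue taken after a day shows what persists rather than the acute response.

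The 8 libraries held 14125508 to 16398573 counts, and mitochondrial transcripts took 8.69% ± 1.59 of them in vehicle and 9.39% ± 1.63 after psilocybin (SD over 4 libraries here and below). Markers of cortical tissue were high in both groups. Slc17a7, the vesicular glutamate transporter of cortical excitatory neurons, averaged 809 FPKM in vehicle and 852 FPKM after psilocybin, and Mbp of myelin 820 and 991 FPKM. Each library also had its own gradient with gene length, the length behind the FPKM values. It is expressed below as the Spearman correlation, across genes, between that length and a library's deviation from the mean of all libraries. Genes are not independent replicates, and a negative value means that short genes stood relatively high. It was 0.26, -0.30, 0.22 and -0.05 in vehicle replicates 1 to 4 and -0.09, -0.26, -0.19 and 0.21 in psilocybin replicates 1 to 4. Replicate 2 of each group stood highest on the leading principal component, at 50.5 for vehicle and 42.3 for psilocybin, against -30.8 to 20.1 in the other 6 libraries. Fewer cells of a type and less RNA per cell cannot be told apart in bulk tissue.

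No gene passed the test between psilocybin at 1 mg/kg and vehicle. By edgeR's quasi-likelihood test on the counts, with Benjamini-Hochberg adjustment over 17404 tested genes, 0 genes were called (0.0%), and the adjusted p rounded to 1.00 for all of them. Without adjustment 289 genes (1.66%) had p under 0.05, and 192 to 996 when 1 of the 8 libraries was left out. The share of 1.66% is below the 0.05 that the threshold itself allows when no gene differs, but it depends on the libraries in the fit. Without vehicle replicate 2 it was 996 of 17729 genes, a share above 0.05. Replicate 4 of both drugs at 3 mg/kg, which entered the fit, had 19602 genes at 0 counts, against 15359 to 16503 in the 8 libraries. Without that library 439 of 17671 genes had an unadjusted edgeR p under 0.05, and 0 were called. Of the 289, 98 (0.563%) were higher and 191 (1.1%) lower after psilocybin. The psilocybin and vehicle values did not overlap for 98 genes (0.563%) in the higher direction and 138 (0.793%) in the lower, 236 (1.36%) in all. Of all tested genes 47.5% were higher, with a median log2 fold change of -0.01. The genes described below therefore head a ranking in which nothing passed.

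Other methods made few calls in this comparison. DESeq2 called 3 genes (Rmnd5b, Mrpl36 and Pla2g4e, each with an adjusted p of 0.0325) with 344 at an unadjusted p under 0.05. The limma voom fit with sample weights called 1 (Pla2g4e, adjusted p 0.0330) with 2749 at an unadjusted p under 0.05, and edgeR fitted to the 8 libraries alone called 1 (Rmnd5b, adjusted p 0.00708). Over 17 alternatives the adjusted p ran from 0.0325 to 1.00 for Pla2g4e and for Mrpl36 and from 0.00708 to 1.00 for Rmnd5b.

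Among named genes on the higher side the smallest unadjusted p was that of Mrpl36, which encodes a small protein of the large subunit of the mitochondrial ribosome (rn6 chr1:32570296-32570589). Its level in vehicle replicates 1 to 4 was 0.946, 0.462, 0.248 and 0.206 CPM (counts relative to the scaled library total), and in psilocybin replicates 1 to 4 it was 7.0, 8.92, 1.41 and 6.36 CPM. The 2 groups did not overlap, and psilocybin replicate 3 lay nearer to vehicle than the other 3. In raw reads this was 28 in all vehicle libraries against 360 in all psilocybin libraries. The log2 fold change was 3.65 (SE 0.82), with an unadjusted edgeR p of 0.000157. Only 1 of the 20 libraries of the other groups stood above the lowest psilocybin value. At 3 mg/kg Mrpl36 averaged 0.442 ± 0.218 CPM, and the difference of 3 mg/kg from 1 mg/kg was -3.74 (SE 0.83, edgeR adjusted p 0.452). DESeq2 called that dose difference (adjusted p 0.0127, the lowest of 16 alternatives that reached up to 1.00). With ketanserin added it averaged 0.793 ± 0.395 CPM, a difference of -2.89 (SE 0.78, edgeR adjusted p 0.894). The rest of the mitochondrial ribosome did not share this size of difference. Of 75 tested genes of mitochondrial ribosomal proteins 57 were higher and 18 lower, with a median of 0.08, which flipped to 24 higher with the length gradient as a covariate. After Mrpl36 the highest was Mrpl30 at 0.52.

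Rmnd5b, a subunit of the CTLH (GID) ubiquitin ligase, behaved similarly against vehicle but not across the series (rn6 chr10:34979923-34990943). Vehicle replicates 1 to 4 had 0.338, 0.396, 0.434 and 0.617 CPM, and psilocybin replicates 1 to 4 had 12.8, 9.06, 5.45 and 6.61 CPM, so every psilocybin library was far above every vehicle library. The log2 fold change was 4.23 (SE 1.06), with an unadjusted edgeR p of 0.000556. Of the 20 libraries of the other groups 9 were above the lowest psilocybin value, and ketanserin alone at 1 mg/kg averaged 5.31 ± 5.85 CPM. Psilocybin at 3 mg/kg averaged 3.65 ± 2.58 CPM and the combination 6.98 ± 3.47 CPM. The log2 differences from psilocybin at 1 mg/kg were -1.22 (SE 0.88) and -0.28 (SE 0.86), and neither passed. The annotated neighbour on the same stretch, Nhp2, a protein of the H/ACA ribonucleoprotein (rn6 chr10:34975708-34979082), was read in single libraries. It stood at 0.743, 52.5, 0.372 and 0.411 CPM in vehicle and at 0.785, 0.618, 26.0 and 0 CPM after psilocybin. Whether reads of this stretch were assigned to one record or the other from library to library was not tested. Of the 11 tested CTLH subunits 7 were higher, with a median of 0.03, and after Rmnd5b the leading one was Mkln1, the scaffold subunit, at 0.25 (SE 0.14).

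**Figure D1:**
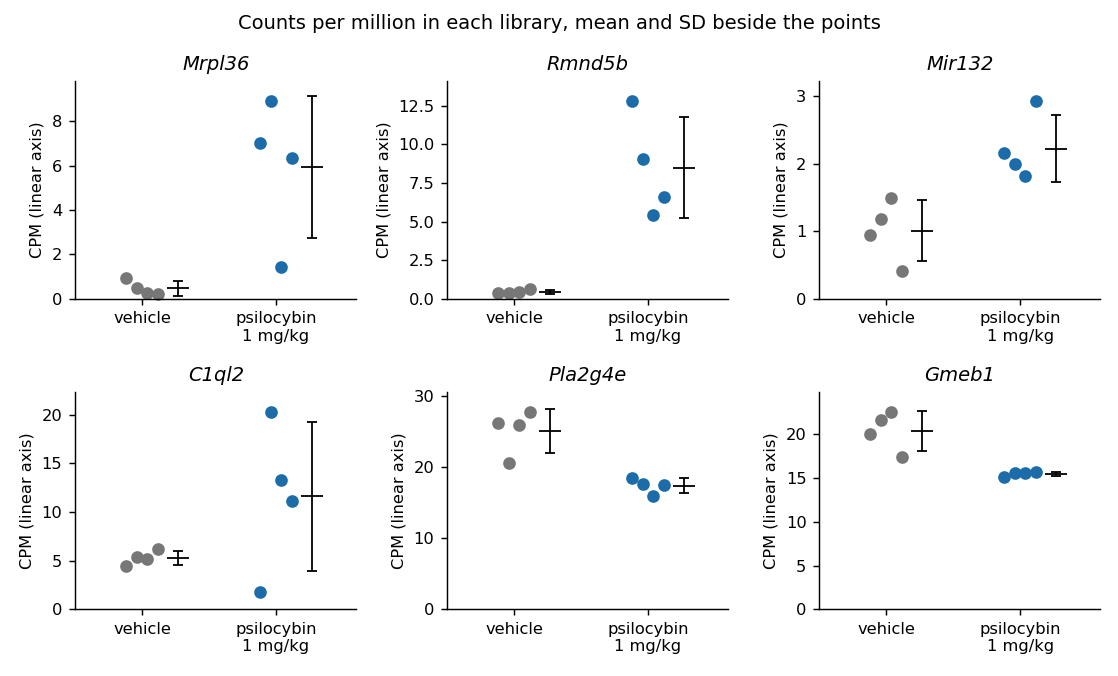
CPM of 6 genes (linear axes) in the 4 vehicle and the 4 psilocybin 1 mg/kg libraries, points in replicate order from left to right, with the mean and SD beside them. Mrpl36, Rmnd5b and Mir132 are higher and Pla2g4e and Gmeb1 lower in every psilocybin library, while C1ql2 is below vehicle in replicate 1 and above it in the other 3.

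Mir132 is the precursor gene of miR-132, a microRNA whose transcription is driven by CREB and by neuronal activity and which promotes dendrite growth. The mature strands of the RefSeq entry (GRCr8) are printed so that the targets they can pair with can be looked up, and the capitals mark the seed, bases 2 to 8.
miR-132-5p, chr10:60522055-60522076 of the plus strand: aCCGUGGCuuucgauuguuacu
miR-132-3p, chr10:60522091-60522112 of the plus strand: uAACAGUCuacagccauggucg
The libraries were made from poly-A RNA, so reads over the hairpin (rn6 chr10:62014995-62015095) come from longer transcripts that span it, and the mature microRNA was not measured. The level was 0.946, 1.19, 1.49 and 0.411 CPM in vehicle replicates 1 to 4 and 2.16, 1.99, 1.82 and 2.93 CPM in psilocybin replicates 1 to 4. All 4 psilocybin libraries were above all vehicle libraries, on 136 reads against 62. The log2 fold change was 1.13 (SE 0.42), with an unadjusted edgeR p of 0.0117. Psilocybin at 3 mg/kg averaged 1.87 ± 0.544 CPM, the combination 2.28 ± 0.520 CPM and ketanserin at 1 mg/kg alone 2.33 ± 1.34 CPM, so these groups lay close to psilocybin at 1 mg/kg.

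Other genes ranked high by p on the higher side included Tacr1 and C1ql2. Tacr1, the neurokinin 1 receptor for substance P, had 0.338, 0.132, 0.372 and 0.206 CPM in vehicle and 1.77, 1.24, 0.673 and 1.31 CPM after psilocybin, with no overlap, on 16 and 76 reads. Its log2 fold change was 2.21 (SE 0.59). C1ql2, a secreted C1q-like protein that organises glutamate receptors at synapses, had 4.46, 5.34, 5.14 and 6.17 CPM in vehicle and 1.77, 20.3, 13.3 and 11.1 CPM after psilocybin. Replicate 1 was thus below all vehicle libraries and the other 3 above them, and the log2 fold change was 1.14 (SE 0.40), or 0.72 without replicate 2. C1ql2 averaged 4.23 ± 0.690 CPM at 3 mg/kg and 2.21 ± 0.491 CPM when ketanserin preceded psilocybin. The difference of the combination from psilocybin alone was -2.39 (SE 0.43, edgeR adjusted p 0.130), the smallest adjusted p in that contrast. It was called in 3 of 16 alternatives, among them the fit without psilocybin replicate 1 (-2.73, adjusted p 4.63e-05) and DESeq2 (adjusted p 0.000208), over a range of 4.63e-05 to 1.00.

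Mmp9, a matrix protease that cleaves perineuronal nets and pro-BDNF, had 4.39, 1.25, 1.67 and 1.23 CPM in vehicle and 1.77, 6.45, 8.74 and 5.55 CPM after psilocybin, and the groups overlapped. It was 1.39 higher in log2 terms (SE 0.47) and averaged 1.78 ± 1.07 CPM at 3 mg/kg. Sdc1, the cell surface proteoglycan syndecan-1, was 1.25 higher (SE 0.43), with overlap, and averaged 1.19 ± 0.271 CPM in the combination. In C1ql2, Mmp9 and Sdc1 alike, psilocybin replicate 1 was low and replicates 2, 3 and 4 high. Olfm3, an olfactomedin secreted by neurons that binds AMPA receptor complexes, was more abundant. It had 32.8, 40.6, 47.1 and 32.4 CPM in vehicle and 45.3, 59.4, 57.4 and 43.0 CPM after psilocybin, a log2 fold change of 0.42 (SE 0.14) with overlap. At 3 mg/kg Olfm3 averaged 34.2 ± 3.10 CPM, a log2 difference from 1 mg/kg of -0.58 (SE 0.14, edgeR adjusted p 0.626).

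Ccdc184, a coiled-coil protein, was 0.38 higher (SE 0.14) with overlap. The other named genes on the higher side rested on single libraries or divided records. Fam111a, a protease linked to DNA replication, had 43.6 CPM in psilocybin replicate 1 and 0.336 to 0.686 CPM in the other 3, and its log2 fold change was 4.70 with that library and 0.17 without it. At 3 mg/kg Fam111a stood at 14.1 to 30.8 CPM. It averaged 11.2 ± 12.7 CPM after ketanserin at 1 mg/kg alone and 9.40 ± 10.5 CPM in the combination. RragB, a Rag GTPase that recruits mTORC1 to lysosomes, has 2 records on chromosome X. One gave 1.15, 2.37, 1.49 and 1.37 CPM in vehicle and 3.01, 2.20, 8.07 and 7.17 CPM after psilocybin (log2 fold change 1.68, SE 0.48), and the other gave 0.39 (SE 0.38). MGC94199 also has 2 records, at 4.66 and 0.04. Since such copies can share reads, these values are uncertain. Of the 12 named genes ranked highest by p on this side, 8 had a mean under 5 CPM and 5 did not overlap between groups. Of all tested genes 0.563% were higher without overlap. The 12 were picked by p in these same libraries, so their lack of overlap is no separate result.

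On the lower side the leading gene was Pla2g4e, a calcium-dependent N-acyltransferase of the cytosolic phospholipase A2 family that makes the precursors of anandamide (rn6 chr3:111952348-111994337). Vehicle replicates 1 to 4 had 26.2, 20.6, 25.9 and 27.8 CPM, and psilocybin replicates 1 to 4 had 18.5, 17.6, 15.9 and 17.5 CPM. The groups did not overlap, and vehicle replicate 2 was the vehicle library nearest to psilocybin. The level was 30.9% lower by the fit, a log2 fold change of -0.53 (SE 0.11), with the smallest unadjusted edgeR p of any named gene at 6.84e-05. Leaving out any 1 library kept it between -0.61 and -0.48. The other groups began at 17.6 CPM, within the psilocybin range. Ketanserin at 1 mg/kg alone averaged 20.6 ± 0.751 CPM, a log2 difference from vehicle of -0.29 (SE 0.11, edgeR adjusted p 1.00). Psilocybin at 3 mg/kg averaged 21.2 ± 2.98 CPM and the combination 22.6 ± 1.16 CPM, with log2 differences from 1 mg/kg of 0.28 (SE 0.11) and 0.38 (SE 0.11), neither of which passed (edgeR adjusted p 1.00 and 0.894). The 25 tested genes of phospholipase A2 and endocannabinoid enzymes and receptors were otherwise even, 13 higher and 12 lower with a median of 0.01.

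Gmeb1, which binds the glucocorticoid modulatory element, was lower in every psilocybin library than in any vehicle library. It had 19.9, 21.6, 22.5 and 17.3 CPM in vehicle and 15.1, 15.5, 15.5 and 15.6 CPM after psilocybin, a log2 fold change of -0.40 (SE 0.12, unadjusted edgeR p 0.00294). The psilocybin values were close together and the vehicle values spread. Sh2b3, the adaptor LNK that restrains cytokine receptor signalling, had 30.1, 22.5, 29.0 and 29.1 CPM in vehicle and 18.8, 16.4, 19.6 and 23.3 CPM after psilocybin. Only vehicle replicate 2 and psilocybin replicate 4 crossed, and the log2 fold change was -0.50 (SE 0.14). Lyn, a Src family kinase of microglia and other immune cells, was -0.48 (SE 0.15), and Sh3kbp1, an adaptor in receptor endocytosis, -0.35 (SE 0.11). Klhl20, a substrate adaptor of a cullin-3 ubiquitin ligase, was -0.39 (SE 0.13), and Sgpl1, the lyase that degrades sphingosine 1-phosphate, -0.32 (SE 0.11).

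Supt20, a subunit of the SAGA complex (-0.32, SE 0.11), and Taz, the cardiolipin transacylase tafazzin (-0.27, SE 0.10), were lower with no overlap. Hacd4, an enzyme of very long chain fatty acid elongation, was -2.97 (SE 0.86) on 35 reads in vehicle and 4 after psilocybin. Tmem116 was -1.71 (SE 0.60) on 43 and 13 reads. Mbd4, a DNA glycosylase that repairs deaminated methyl-CpG sites, was -1.05 (SE 0.37) on 167 and 81 reads, with overlap. Of these 12 lower genes 6 did not overlap, and 3 had a mean under 5 CPM. Of all tested genes 0.793% were lower without overlap, and these 12 too were picked by p in the same libraries.

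Among genes with a mean of at least 5 CPM and no overlap, the largest differences on the higher side were in Fhl3, a LIM-domain coregulator (0.58, SE 0.29), and Serpinf1, the secreted neurotrophic serpin PEDF (0.53, SE 0.29). They continued with Ccdc34 (0.46, SE 0.23), Bri3bp (0.44, SE 0.26), Zfp189 (0.44, SE 0.30) and the ciliary chaperonin-like Bbs10 (0.42, SE 0.17). Among these higher genes only Bbs10 had an unadjusted edgeR p under 0.05 (0.0213), and the others had 0.0572 to 0.152. Zfp189 encodes a zinc-finger transcription factor. On the lower side they were in 1 of 2 records of Col23a1, a transmembrane collagen (-0.72, SE 0.37, and 0.04 in the other record), Prdm16, a zinc-finger regulator of cell fate (-0.58, SE 0.26), and Zfp275 (-0.55, SE 0.20). Pla2g4e, Drc1 of the axonemal dynein regulatory complex (-0.45, SE 0.20) and the adaptor Skap2 (-0.44, SE 0.21) followed. On this side only Col23a1 had an unadjusted edgeR p above 0.05 (0.0608). All were picked for not overlapping in these same libraries, so that is no separate result. Of all tested genes 0.563% were higher and 0.793% lower without overlap.

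The gene lists, 31 in all and written with earlier results of these data known, gave small differences. Their medians ran from -0.34 to 0.28, beside -0.01 over all tested genes. In 17 lists no member had an unadjusted edgeR p under 0.05, which 1.66% of all tested genes had. No member of any list was called (0.0% of all tested genes were).

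**Figure D2:**
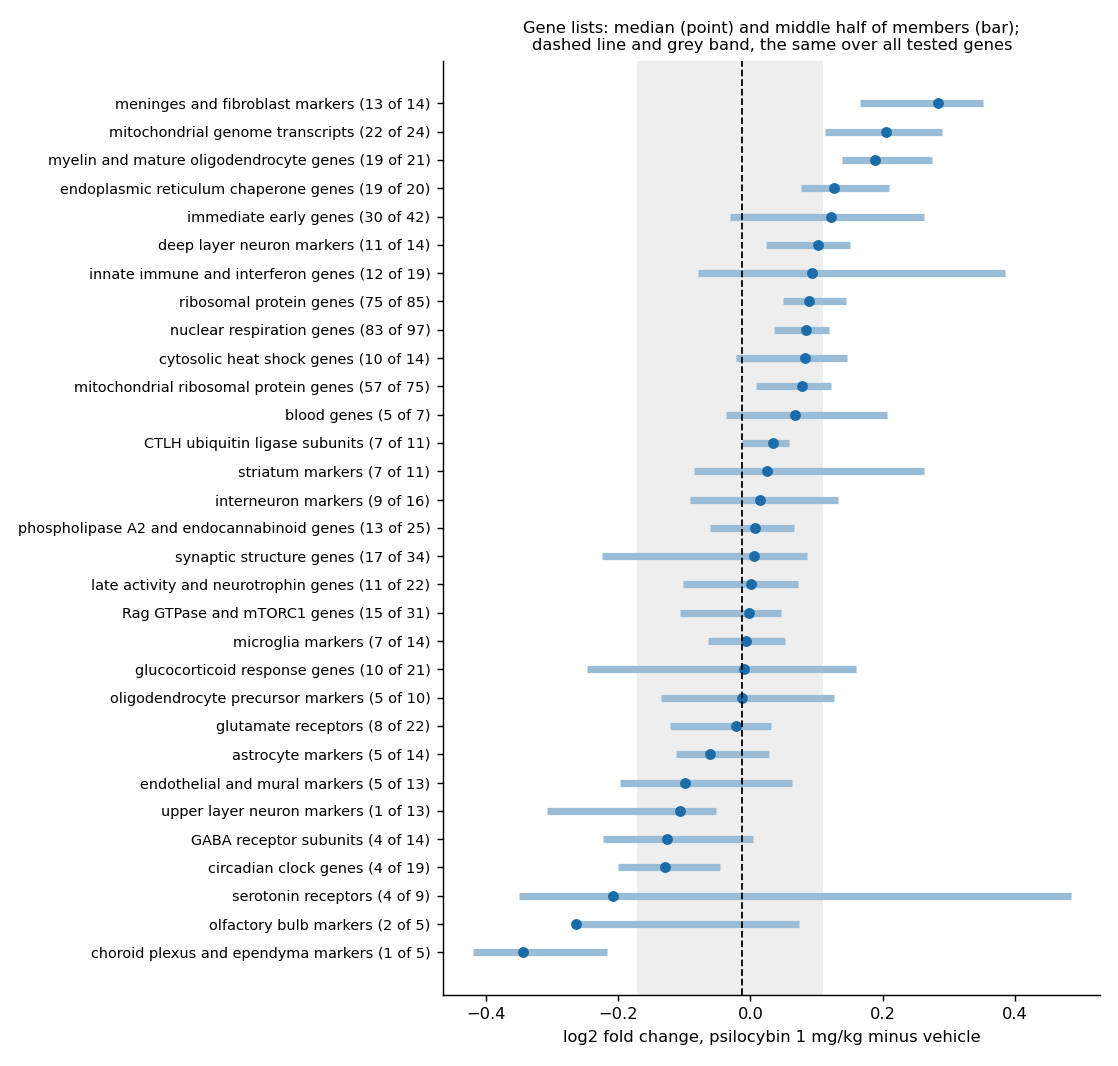
Median log2 fold change of psilocybin 1 mg/kg over vehicle in each of the 31 gene lists (points), with the interquartile range of its members as bars and the number higher of the number tested in brackets. The dashed line and grey band give the same over the 17404 tested genes, and the medians of meningeal, mitochondrial genome, myelin, endoplasmic reticulum chaperone and immediate early genes lie right of the band, and those of serotonin receptor, olfactory bulb and choroid plexus genes left of it.

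The serotonin receptors, the targets of psilocin, gave no member that passed the test. By FPKM, the deposited value per gene length that allows genes to be ranked, Htr2a was the most abundant at 7.28 ± 0.784 in vehicle and 6.30 ± 0.665 after psilocybin. Htr3a (5.45 and 4.28), Htr6 (4.49 and 3.80), Htr1a (4.44 and 2.86), Htr2c (3.34 and 4.67), Htr5a (2.87 and 2.0) and Htr1b (1.89 and 2.22) followed in the order of vehicle levels. In vehicle Htr2a and Htr3a differed by more than their SDs, and neighbours from Htr3a to Htr5a by less. Htr1d and Htr1f were under 1 FPKM, and Htr4, Htr7, Htr5b, Htr2b and Htr3b were too low to test. Of the 9 tested receptors 4 were higher and 5 lower, with a median of -0.21.

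Htr2a had 30.6, 34.8, 38.6 and 31.9 CPM in vehicle and 34.1, 27.5, 27.9 and 28.2 CPM after psilocybin. Psilocybin replicates 2, 3 and 4 were below all vehicle libraries and replicate 1 among them. The log2 fold change was -0.21 (SE 0.16, unadjusted edgeR p 0.212). Htr2c, which also couples to Gq, went the other way, from 10.3, 20.3, 18.1 and 10.7 CPM in vehicle to 23.4, 21.3, 21.1 and 17.3 CPM, and only psilocybin replicate 4 lay inside the vehicle range. Its log2 fold change was 0.48 (SE 0.25, unadjusted edgeR p 0.0655). The inhibitory Gi-coupled Htr1a was -0.63 (SE 0.50), with 1.1 to 6.17 CPM after psilocybin and 2.18 to 7.54 CPM in vehicle.

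Immediate early genes, transcription factors and effectors switched on by activity, were more often higher than lower, a lean also seen in the other groups given below. Of 42 tested 30 were higher, with a median of 0.12, beside 47.5% and -0.01 over all tested genes, and 1 had an unadjusted p under 0.05 (1.66% of all tested genes). That was Fosb, a component of AP-1 whose truncated form accumulates with repeated stimulation. It had 7.30, 4.88, 6.13 and 5.28 CPM in vehicle and 7.07, 13.8, 7.27 and 8.98 CPM after psilocybin, with overlap only between vehicle replicate 1 and psilocybin replicates 1 and 3. The log2 fold change was 0.65 (SE 0.27, unadjusted edgeR p 0.0241), and 0.39 both without psilocybin replicate 2 and by voom. Fosb averaged 9.27 ± 1.13 CPM at 3 mg/kg, 9.21 ± 0.746 CPM after ketanserin at 1 mg/kg alone and 7.90 ± 1.62 CPM in the combination.

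Egr1, a zinc-finger factor and common marker of activated neurons, had 138, 132, 150 and 119 CPM in vehicle and 172, 204, 156 and 129 CPM after psilocybin, where only replicate 4 was within the vehicle range. Its log2 fold change was 0.30 (SE 0.15). Arc, which drives removal of AMPA receptors from synapses, had 25, 46.7, 89.2 and 35.9 CPM in vehicle and 62.3 to 84.7 CPM after psilocybin, 0.60 higher (SE 0.44), with vehicle replicate 3 above every psilocybin library. Fos was 0.53 (SE 0.43), Npas4 0.27 (SE 0.48) and Jun 0.00. Leaving out 1 library moved Fos between 0.35 (without vehicle replicate 4) and 0.97 (without vehicle replicate 3), and Npas4 to 0.02 without psilocybin replicate 1. Arc ran from 0.39 without vehicle replicate 1 to 1.06 without vehicle replicate 3, and Egr1 was 0.17 without psilocybin replicate 2. Klf10, a TGF-beta inducible factor, was lower at -0.32 (SE 0.23), and at 3 mg/kg it was 0.60 above 1 mg/kg (SE 0.23). Cyr61 was the only member of the list without overlap (0.563% of all tested genes were higher without overlap), at 0.60 (SE 0.46). Its levels were 1.18 to 3.09 CPM.

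Taken per library as the median deviation of the list's log2 CPM from the mean of the libraries, immediate early genes stood at -0.17, -0.16, 0.03 and -0.12 in vehicle and at -0.02, -0.01, -0.03 and 0.02 after psilocybin, so vehicle replicate 3 was the highest of all 8. Leaving out 1 library at a time gave 25 to 31 higher, and the length gradient as a covariate gave 29, with a median of 0.15. Against the same vehicle libraries 27 of 42 were higher at 3 mg/kg (median 0.13) and 27 of 42 in the combination (median 0.21). Arc averaged 49.2 ± 28.1 CPM in vehicle and 74.9 ± 11.4 CPM after psilocybin at 1 mg/kg. It averaged 84.2 ± 34.4 CPM at 3 mg/kg, 99.4 ± 53.7 CPM after ketanserin at 1 mg/kg alone and 112 ± 36.3 CPM in the combination. Late activity genes and neurotrophins, among them Bdnf and its receptor, were even at 11 of 22 higher with a median of 0.00.

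RefSeq promoter windows (GRCr8, 250 bases before to 50 after a gene's start) were available for 30 of the immediate early genes. The cyclic AMP response element TGACGTCA, a palindrome that CREB binds, was found in 6 of them, 5 higher and 1 lower, and with or without it 22 of the 30 were higher. It occurred in 1.83% of 33469 windows, and 54.9% of the 324 other tested genes that hold it were higher, with a median of 0.01.

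Genes of the synapse had medians near that of all tested genes apart from GABA receptor subunits. Glutamate receptors were 8 of 22 higher (median -0.02) and synaptic structure genes 17 of 34 (median 0.00). Synaptic structure genes ran from -3.62 to 0.20 in log2 fold change. Of these, 1 had an unadjusted edgeR p under 0.05 (1.66% of all tested genes did). GABA receptor subunits were 4 of 14 higher (median -0.13), which became 10 of 14 (median 0.08) with the length gradient as a covariate and ranged from 2 to 10 when 1 library was left out. Interneuron markers were 9 of 16 higher (median 0.01). Markers of upper layer neurons were 1 of 13 higher (median -0.11), but 7 of 13 (median 0.00) with the length covariate. The largest difference among them was in Cux2, a homeobox factor of layers II to IV, at -0.45 (SE 0.33). Cux2 stood at 129, 44.9, 103 and 91.0 CPM in vehicle and 91.7, 38.6, 44.6 and 93.2 CPM after psilocybin, low in vehicle replicate 2 and in psilocybin replicates 2 and 3, which also had the 3 most negative length correlations. Deep layer markers were 11 of 14 higher (median 0.10, and 7 to 12 when 1 library was left out), led by Ctgf, a subplate and layer VI marker, at 0.47 (SE 0.34).

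The most even direction among the 31 lists was in chaperones and folding enzymes of the endoplasmic reticulum, the genes that the unfolded protein response switches on. Other lists came near it, with 13 of 14 meningeal and 22 of 24 mitochondrial genome genes higher and 12 of 13 upper layer markers lower. Members of a list are not independent of each other, and the lists were written with earlier results of these data known. The list also holds Xbp1 and Trib3, which are neither chaperones nor folding enzymes, and is called the chaperone list for short. Of 20 tested 19 were higher and 1 lower, with a median of 0.13, so most single differences were small. None was called, and 1 had an unadjusted edgeR p under 0.05 (0.0% and 1.66% of all tested genes). Leaving out 1 library at a time gave 19 or 20 higher with medians of 0.10 to 0.20, and 18 were higher with the length covariate (median 0.10) or without replicate 2 of both groups (median 0.15).

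Hsp90b1, the HSP90 paralogue GRP94 that folds integrins and Toll-like receptors, had 364, 295, 262 and 272 CPM in vehicle and 335, 345, 347 and 357 CPM after psilocybin. Vehicle replicate 1 was the highest of the 8 and the other 3 vehicle libraries the lowest, and the log2 fold change was 0.21 (SE 0.10, unadjusted edgeR p 0.0417). Hyou1, a nucleotide exchange factor for BiP, had 156, 144, 134 and 156 CPM in vehicle and 175, 163, 159 and 160 CPM after psilocybin. With no overlap, it was 0.16 higher (SE 0.08), and 0.563% of all tested genes were higher without overlap. Hspa5, the master chaperone BiP itself, had 332, 333, 271 and 272 CPM in vehicle and 354, 345, 305 and 312 CPM after psilocybin, with overlap, at 0.12 (SE 0.12). The lectin chaperone calreticulin, Calr, was 0.20 (SE 0.14). The secreted folding factors Creld2 and Manf were 0.26 (SE 0.19) and 0.21 (SE 0.20), and Sdf2l1 of the BiP complex 0.29 (SE 0.26). Trib3, a stress-induced pseudokinase, was 1.03 (SE 0.77) with every library near or under 1 CPM. Dnajb9, a co-chaperone of BiP and a common readout of the IRE1 branch, was the member that was lower, at -0.06 (SE 0.11).

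**Figure D3:**
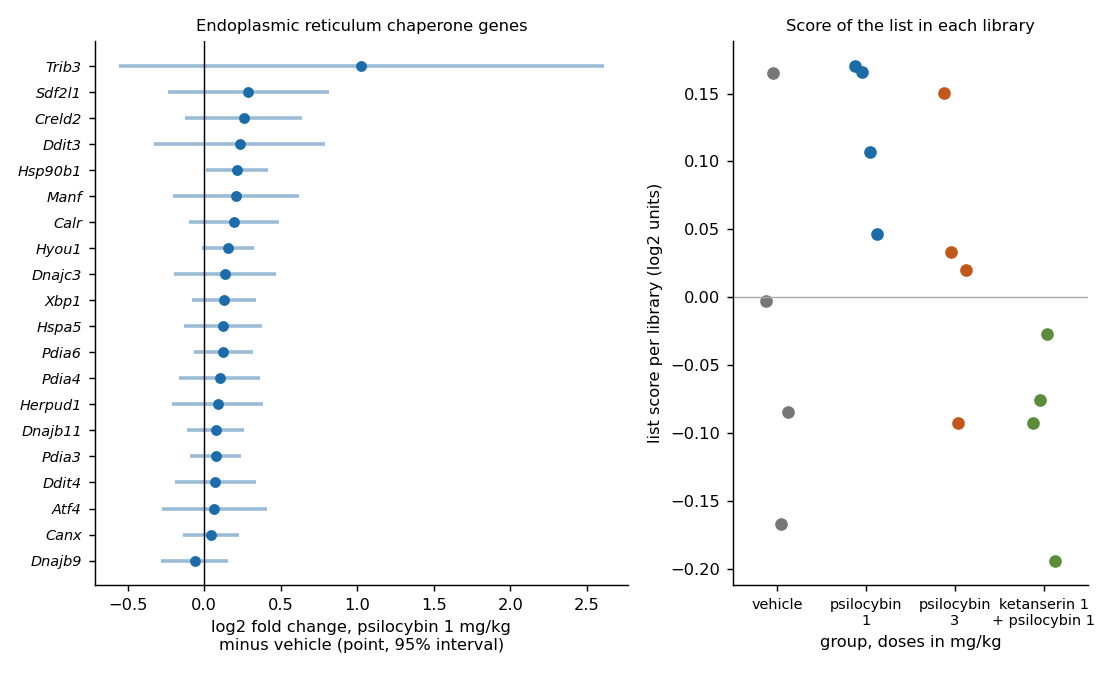
Left, log2 fold change of psilocybin 1 mg/kg over vehicle for the 20 endoplasmic reticulum chaperone genes, with 95% intervals as bars. Right, the list's median deviation in log2 units in each library of 4 groups, where the psilocybin 1 mg/kg libraries stand between 0.05 and 0.17 and those of the combination all below 0.

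By library the list stood at 0.00, 0.17, -0.17 and -0.08 in vehicle and at 0.17, 0.17, 0.11 and 0.05 after psilocybin at 1 mg/kg, so vehicle replicate 2 lay among the psilocybin libraries. The other groups were set against the same psilocybin libraries, so their differences are not independent of this one. At 3 mg/kg 3 of 20 genes were higher than at 1 mg/kg (51.9% of all tested genes were), with a median of -0.11, and against vehicle 12 of 20 were higher with a median of 0.03. When ketanserin preceded psilocybin 1 of 20 was higher than after psilocybin alone (51.7% of all tested genes were), with a median of -0.18, and against vehicle 3 of 20 were higher with a median of -0.09. The 4 combination libraries stood at -0.09, -0.08, -0.03 and -0.19. None of the 20 passed in either contrast (0.0% of all tested genes did in each).

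The promoters of many of these genes carry the ER stress response element, to which NF-Y and ATF6 bind. It was searched as CCAAT and CCACG with 9 unspecified bases between them, on both strands, and occurred in 22 of 33469 windows (0.0657%). Of 17 chaperone genes with a window 7 hold it (Calr, Canx, Creld2, Dnajc3, Hsp90b1, Hspa5 and Xbp1), and all 7 were higher, with a median of 0.13. With or without it, 16 of the 17 were higher, also with a median of 0.13. Of the 9 other tested genes with the element 5 were higher with a median of 0.01, beside 48.0% and -0.01 of the 10605 tested genes with a window. The 250 bases before the start of 3 of them are printed 5′ to 3′ on the gene's strand (RefSeq, GRCr8), because they show the element whole, doubled in Hsp90b1, and in the reverse orientation in Creld2. Capitals mark the element.
Hspa5, chr3:38452766-38453015, plus strand: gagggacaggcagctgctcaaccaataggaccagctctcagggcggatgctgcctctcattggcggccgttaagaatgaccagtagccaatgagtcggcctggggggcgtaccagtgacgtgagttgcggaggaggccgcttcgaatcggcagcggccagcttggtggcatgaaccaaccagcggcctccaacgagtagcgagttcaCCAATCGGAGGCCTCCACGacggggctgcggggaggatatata
Hsp90b1, chr7:23012294-23012543, minus strand: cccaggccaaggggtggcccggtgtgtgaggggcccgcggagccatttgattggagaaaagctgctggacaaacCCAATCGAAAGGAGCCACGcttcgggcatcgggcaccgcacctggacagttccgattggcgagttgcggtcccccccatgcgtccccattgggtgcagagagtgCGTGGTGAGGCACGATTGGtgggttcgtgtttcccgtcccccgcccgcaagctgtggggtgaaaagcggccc
Creld2, chr7:121789134-121789383, plus strand: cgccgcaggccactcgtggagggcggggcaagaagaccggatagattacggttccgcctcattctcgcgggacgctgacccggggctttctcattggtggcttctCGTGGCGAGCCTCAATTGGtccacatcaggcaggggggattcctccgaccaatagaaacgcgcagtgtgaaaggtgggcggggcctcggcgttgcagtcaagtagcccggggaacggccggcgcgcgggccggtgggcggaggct
The match is of letters only, and occupancy of these sites was not measured here.

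Cytosolic heat shock genes were 10 of 14 higher (median 0.08). Of the 14, 1 had an unadjusted edgeR p under 0.05 (1.66% of all tested genes did). The one with an unadjusted p under 0.05 was Chordc1, a co-chaperone of HSP90, at 33.0, 35.2, 32.9 and 25.4 CPM in vehicle and 43.0, 42.0, 36.1 and 33.3 CPM after psilocybin. It was 0.29 higher (SE 0.12, unadjusted edgeR p 0.0236), with psilocybin replicate 4 inside the vehicle range.

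Myelin and mature oligodendrocyte genes were 19 of 21 higher, with a median of 0.19, and none had an unadjusted p under 0.05. Mbp, the basic protein that compacts myelin, had 1473, 4786, 1956 and 2955 CPM in vehicle and 1678, 4403, 4882 and 2544 CPM after psilocybin, and each group spanned about the same range. Its log2 fold change was 0.27 (SE 0.37). Ermn, a cytoskeletal protein of the outer myelin layers, was the largest of the list at 0.59. By library the list stood at -0.52, 0.70, -0.07 and 0.23 in vehicle and at -0.40, 0.64, 0.83 and 0.13 after psilocybin. The direction rested on psilocybin replicate 3, without which 9 of 21 were higher with a median of -0.01.

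At 3 mg/kg the list stood at -0.24, -0.49, -0.69 and 0.37 by library, where replicate 4 was above 3 of the 4 vehicle libraries. Against 1 mg/kg 0 of 21 were higher, with a median of -0.62, and 8 had an unadjusted edgeR p under 0.05 (3.24% of all tested genes did), though none passed after adjustment (0.0%). Against vehicle, at 3 mg/kg, 0 of 21 were higher with a median of -0.38. Mbp averaged 3377 ± 1516 CPM at 1 mg/kg and 1917 ± 866 CPM at 3 mg/kg, a log2 difference of -0.82 (SE 0.37). Markers of oligodendrocyte precursors were 5 of 10 higher at 1 mg/kg with a median of -0.01. How much white matter each dissection held was not tested.

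**Figure D4:**
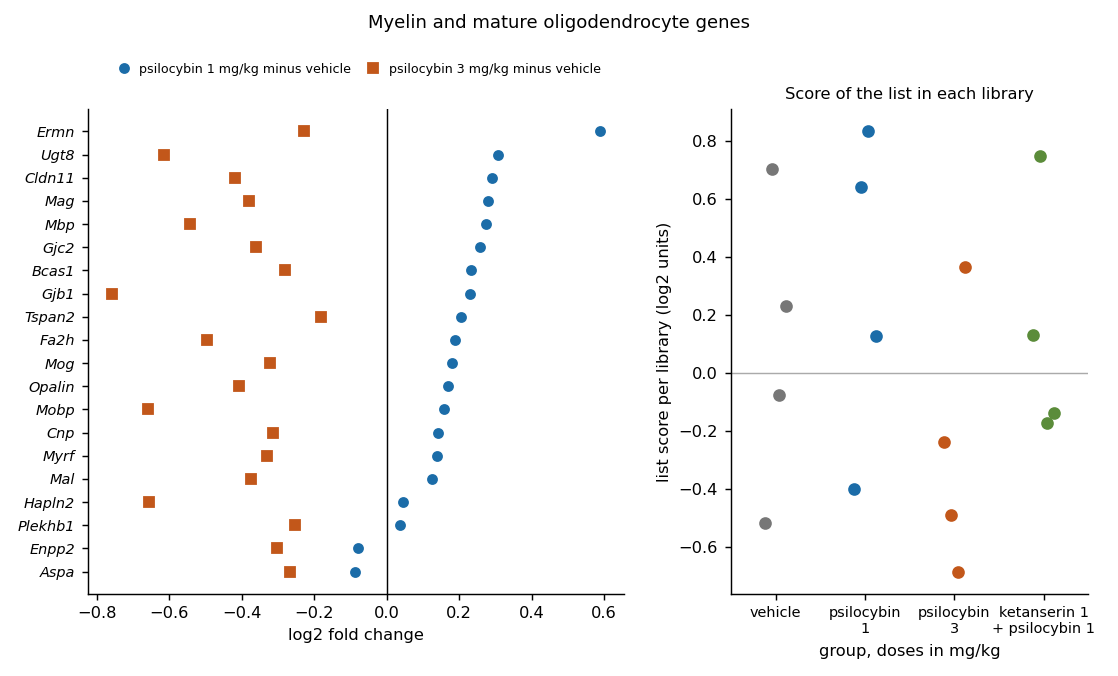
Left, log2 fold changes over vehicle of 20 of the 21 myelin and mature oligodendrocyte genes at psilocybin 1 mg/kg (circles) and 3 mg/kg (squares), which share the vehicle libraries. Right, the list's median deviation in log2 units in each library of 4 groups, where vehicle runs from -0.52 to 0.70 and psilocybin 1 mg/kg from -0.40 to 0.83.

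Among markers of other cells, meningeal and fibroblast genes were 13 of 14 higher with a median of 0.28. Igf2, a growth factor made in the meninges and choroid plexus, had 128, 125, 105 and 131 CPM in vehicle and 78.4, 169, 122 and 258 CPM after psilocybin, where replicate 4 was the highest and replicate 1 the lowest of the 8. By library the list stood at 0.36, 0.02, -0.07 and 0.19 in vehicle and at -0.19, 0.48, 0.13 and 0.75 after psilocybin, so vehicle replicate 1 was above 2 psilocybin libraries. Without psilocybin replicate 4 only 9 of 14 were higher. Ttr, the transthyretin that choroid plexus makes in great amounts, had 0.203, 1.52, 1.05 and 1.03 CPM in vehicle and 0.393, 9.68, 15.3 and 3.05 CPM after psilocybin, a log2 fold change of 2.89 (SE 1.29). The other 4 tested choroid and ependymal genes were lower. The part of tissue carried along in dissection was not tested in any of these.

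Microglia markers were 7 of 14 higher (median -0.01) and did not move as a group. Cx3cr1, the fractalkine receptor of resting microglia, had 14.1, 4.29, 11.7 and 8.77 CPM in vehicle and 6.15, 2.61, 5.31 and 8.92 CPM after psilocybin, at -0.76 (SE 0.37). The complement receptor subunit Itgam was -0.59 (SE 0.31). The lysosomal Cd68 went the other way with no overlap, from 1.1 to 1.28 CPM in vehicle to 1.77 to 2.99 CPM after psilocybin, at 0.91 (SE 0.60). Cd68 had 72 reads in vehicle and 137 after psilocybin, and the 20 libraries of the other groups ran from 0 to 3.19 CPM. Of all tested genes 0.563% were higher without overlap. Astrocyte markers were 5 of 14 higher (median -0.06) and endothelial and mural markers 5 of 13 (median -0.10).

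Genes of translation and respiration were mostly higher, a direction that flipped for the 3 nuclear lists with the length gradient as a covariate. Ribosomal protein genes were 75 of 85 higher (median 0.09), nuclear genes of respiration 83 of 97 (median 0.08) and transcripts of the mitochondrial genome 22 of 24 (median 0.21). With the length correlation of each library as a covariate the counts were 31 of 85, 24 of 97 and 20 of 24, with medians of -0.04, -0.05 and 0.09, and for mitochondrial ribosomal proteins 24 of 75 and -0.05. Without psilocybin replicate 2 they were 29, 33 and 12, and 31 for the mitochondrial ribosomal proteins. Vehicle replicates 1 and 3 and psilocybin replicate 4, which had the positive length correlations, stood lowest for ribosomal proteins at -0.33, -0.16 and -0.20. Vehicle replicate 2 and psilocybin replicate 2 stood highest at 0.48 and 0.43.

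**Figure D5:**
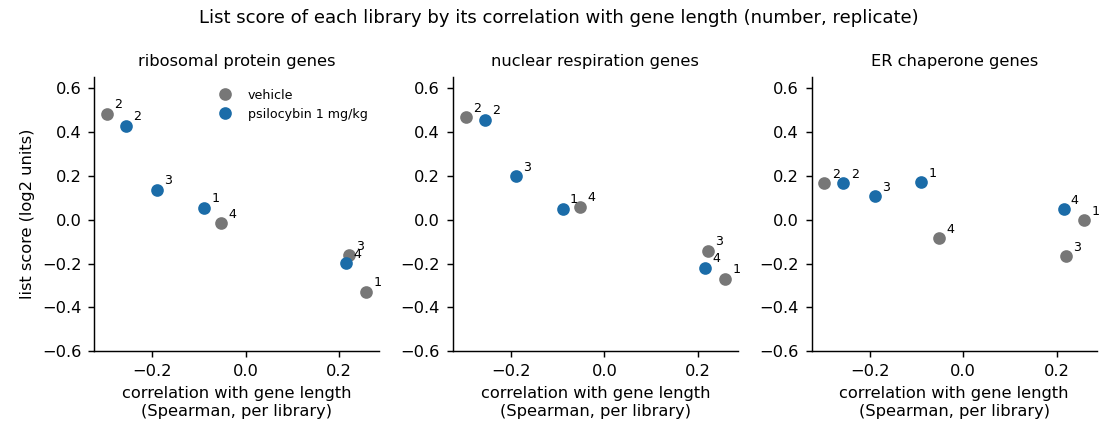
Median deviation of 3 gene lists in log2 units (vertical axis) against the Spearman correlation with gene length (horizontal axis) in the 4 vehicle and 4 psilocybin 1 mg/kg libraries, numbered by replicate. Ribosomal protein and nuclear respiration genes stand highest in replicate 2 of both groups and fall as the correlation rises, while chaperone genes span -0.17 to 0.17.

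Circadian clock genes were 4 of 19 higher with a median of -0.13, which was 6 of 19 and -0.04 with the length covariate. The period gene Per3 was -0.37 (SE 0.30), with 10.4 to 27.1 CPM in vehicle and 12 to 19.8 CPM after psilocybin, and Npas2, a CLOCK paralogue of the forebrain, -0.20 (SE 0.12). Glucocorticoid response genes were 10 of 21 higher (median -0.01), with Gmeb1 the one with an unadjusted edgeR p under 0.05 (1.66% of all tested genes). Innate immune and interferon genes were 12 of 19 higher (median 0.09), and Rag GTPase and mTORC1 genes 15 of 31 (median -0.00).

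The contrasts of psilocybin at 1 mg/kg with the higher dose and with the combination held more genes at an unadjusted p under 0.05 than the contrast with vehicle, yet none passed. In the main fit the share of such genes was in each below the 0.05 that the threshold allows when no gene differs. The dose contrast had 564 such genes (3.24%), 0 calls (0.0%) and a smallest edgeR adjusted p of 0.109. The combination contrast had 718 (4.13%), 0 calls (0.0%) and a smallest edgeR adjusted p of 0.130. Without replicate 4 of both drugs at 3 mg/kg the counts at an unadjusted edgeR p under 0.05 were 767 and 974 of 17671, with 0 calls. The 974 are a share above 0.05. DESeq2 called 6 and 1 genes in the dose and combination contrasts and voom with sample weights 92 and 331. The genes of the dose contrast called by DESeq2 were Nefl, the light neurofilament (-0.47, adjusted p 0.00395), Galnt9, Syt12, Scn4b, Palmd and Mrpl36.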

How the data were processed

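Poly-A RNA of prefrontal cortex of rats was sequenced in 28 libraries, 7 groups of 4 biological replicates, of which 8 libraries form the comparison. The authors deposited raw read counts per gene, which were used for all tests, and FPKM values per gene, which were used only to rank genes and to describe levels. The submitters' processing notes list featureCounts 1.5.0-p3, StringTie 1.3.3b and HISAT2 2.0.5 with the rat build rn6 and give them no roles. Whether counting used the strand is not stated there, so overlapping or antisense genes may share reads. Total counts of the 28 libraries were 12783067 to 18538414. Records without a gene name made up 2.0 to 2.3% of the 8 libraries and stayed in the totals.

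The test was edgeR 4.0.16 in R 4.3.3, after filterByExpr by group and TMM scaling. The robust quasi-likelihood model held a coefficient for each of the 7 groups and used all 28 libraries, with 21 residual degrees of freedom. Tests were two-sided, adjustment was by Benjamini-Hochberg over 17404 genes, with 0.05 as the threshold for a call. CPM are counts relative to the TMM-scaled library total, and log2 fold changes, standard errors and 95% intervals come from the fit. A list's level in a library is the median deviation of log2(CPM + 0.5). In simulated counts for psilocybin 1 mg/kg against vehicle (17194 genes tested), the changed genes were drawn from those with a mean above 1 CPM over the 28 libraries. Of these, 28% of 75 changed 1.5-fold, 67.2% of 58 changed 2-fold and 83.6% of 67 changed 4-fold were recovered. There were 7 false calls among 16994 unchanged genes.

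Genes were named by rule. These were the 12 with the lowest unadjusted p in each direction, and the 6 with the largest fold in each direction among those with a mean of at least 5 CPM and no overlap between groups. Up to 6 members of each list with the lowest p were added, as were Mrpl36, Rmnd5b, RragB, Pla2g4e, Sh2b3, Gmeb1 and Nhp2. Every tested serotonin receptor, immediate early gene, myelin gene and chaperone could also be named, and 1 myelin gene is not reported here. Members, lists and named genes were chosen with earlier results of these data known. The 8 libraries were not copies of each other, since the chi-square per gene between pairs was 10.3 to 69.9. The labels number no replicates, so nothing was paired. Alternatives were another scaling, other filters, a fit of only the groups compared, leaving out single libraries, DESeq2 1.42.0, and limma 3.58.1 voom with sample weights. The fits without replicate 2 of both groups and with the length correlation as a covariate were added after the data had been seen. No column of another sample was present in the tables used. Promoter and microRNA sequences are RefSeq entries on GRCr8, matched by symbol, and gene coordinates are on rn6 as deposited.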

Additional observations from a re-analysis of the deposited data

Results flagged for a closer look

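In all, 246 sets of 4 libraries were examined, covering 88 genes, the levels of 31 lists and some library measures, each in vehicle and after psilocybin. Of these, 14 had a single library set apart from the other 3 by a gap beyond Dixon's critical value for 4 samples. All 14 were genes, so the share among the gene sets alone is larger than among the 246. Chance marks about 1 in 20 such sets.

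The widest gaps were in genes that were near 0 in the other libraries. Nhp2 stood at 52.5 CPM in vehicle replicate 2 and at 26.0 CPM in psilocybin replicate 3, against 0.785 CPM or less in the rest of each group, and Fam111a at 43.6 CPM in psilocybin replicate 1 against 0.686 CPM or less. Mmp9 stood at 4.39 CPM in vehicle replicate 1, next to 1.67 CPM, which brought that library among the psilocybin values.

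In genes that were lower after psilocybin, vehicle replicate 2 was the low one for Sh2b3 (22.5 CPM) and Sh3kbp1 (38.9 CPM). Sgpl1 was high in psilocybin replicate 4 (51.7 CPM) and Prdm16 in vehicle replicate 1 (9.73 CPM). In genes that were higher, psilocybin replicate 1 was low for Serpinf1 (14.1 CPM) and replicate 2 for Bri3bp (6.79 CPM). The chaperone Manf was high in vehicle replicate 2 (66.8 CPM, next to 41.6 CPM). Among serotonin receptors, Htr2a was high in psilocybin replicate 1 (34.1 CPM), Htr1b in vehicle replicate 3 (5.64 CPM), and Htr1f low in psilocybin replicate 4 (0.125 CPM).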

How the results depend on the processing

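No paired analysis was possible because the labels give the replicates no numbers that the groups share. For psilocybin 1 mg/kg against vehicle 14 of 17 alternatives gave 0 calls, all 9 fits that left out libraries of either group among them, and 3 genes were called by DESeq2, 1 by voom with sample weights and 1 by edgeR on only the groups compared. The count at an unadjusted edgeR p under 0.05 moved more, from 192 without psilocybin replicate 2 to 996 without vehicle replicate 2. For 3 against 1 mg/kg the calls were 6 by DESeq2, 92 by voom, 5 with the length covariate and 0 to 4 when 1 library was left out (4 without psilocybin 1 mg/kg replicate 1). For the combination against psilocybin alone they were 1 by DESeq2, 331 by voom and 0 to 1 when 1 library was left out (1, C1ql2, without psilocybin replicate 1). The causes were not tested. The other 12 and 13 alternatives gave 0.

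List medians moved by more than their spread in 15 recomputed values, and 512 stayed within it. The spread was the pooled SD of a list's level within the groups, so a median could change sign and stay within it. That spread was 0.53 for myelin genes, whose median of 0.19 fell as low as -0.0081 when 1 library was left out. For ribosomal protein genes it was 0.31, and the median of 0.09 fell as low as -0.029. When 1 library was left out, olfactory bulb markers (-0.26) ran from -0.30 to -0.038, innate immune genes (0.09) from -0.0069 to 0.26, interneuron markers (0.01) from -0.041 to 0.038 and striatum markers (0.02) from -0.074 to 0.15. Without replicate 2 of both groups the olfactory list was -0.082 and the innate immune list 0.25. With the length covariate the striatum list was 0.14. By voom these were -0.10 for olfactory bulb, 0.079 for interneuron, 0.20 for striatum, 0.16 for cytosolic heat shock, 0.037 for mTORC1 and 0.059 for phospholipase genes.

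Of 88 named genes 10 changed sign in some setting. Leaving out 1 library gave -4.85 to 3.75 for Nhp2, -0.057 to 0.066 for Jun, -0.11 to 0.93 for Egr2, -0.17 to 0.36 for Mobp and -0.043 to 0.48 for Gjb1. It gave -0.27 to 0.16 for Aspa, -0.13 to 0.0010 for Dnajb9 and -0.031 to 0.76 for Htr1b. Without replicate 2 of both groups Nhp2 was 4.11, Egr2 -0.38 and Htr1d -0.024. By voom Nhp2 was 2.40, Egr2 -0.42, Aspa 0.16, Dnajb9 0.028 and Enpp2 0.0048. Jun was -0.0051 with the stricter filter and -0.0058 on only the groups compared.

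By the simulation, differences of 1.5-fold were mostly out of reach with 4 libraries a group at this depth, so most list medians above lie below what a single gene could have shown. The simulated counts were drawn independently for each gene, without the length gradient of these libraries. Genes of the lowest levels were not among those changed. The recovery rates may therefore not hold for the real data, and they do not cover such low genes.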

Other observations

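Some transcripts were read in single libraries and nearly absent in others of the same group, in both arms of the comparison. Ndufa1, an accessory subunit of respiratory complex I (rn6 chrX:124513269-124516705), stood at 54.2 CPM in psilocybin replicate 3 and at 0 to 0.549 CPM in the other 3 psilocybin libraries and 0.135 to 0.660 CPM in vehicle. In the combination it averaged 32.5 ± 13.0 CPM. With Nhp2 and Fam111a this gives 3 genes that were on in 1 library at psilocybin 1 mg/kg and near 0 in the rest of that group. In other groups all 3 were on in some libraries. Ndufa1 was picked out after its values had been seen.

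Pdk4, the kinase that shuts off pyruvate dehydrogenase in fasting and under glucocorticoids, had 1.22, 0.132, 1.55 and 0.343 CPM in vehicle and 0.196, 0.343, 0.135 and 0.436 CPM after psilocybin. Vehicle replicates 1 and 3 were high and the other 6 libraries low, and the log2 fold change was -1.52 (SE 1.00). The meningeal proteoglycan Fmod had 16.2, 9.37, 9.79 and 15.9 CPM in vehicle and 11.8, 18.9, 18.6 and 23.4 CPM after psilocybin, a log2 fold change of 0.51 (SE 0.31) with overlap.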
